A study of Mus musculus with 8 samples.

Results

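Calcineurin, the NFAT transcription factors and CaMKII are followed here through 10 genes in pressure-loaded mouse hearts with a cardiac-specific knockout of the transcription factor Yin-Yang 1 (YY1). The genes were taken by symbol from a list drawn up with earlier results of these data known. They are the calcineurin inhibitor Rcan1, the calcineurin catalytic subunits Ppp3ca and Ppp3cb, its regulatory subunit Ppp3r1, the factors Nfatc1, Nfatc2, Nfatc3 and Nfatc4, and the kinases Camk2d and Camk2g. All 10 were listed among the 24411 gene symbols of the count tables, and all 10 passed the filter on low counts that left 13506 genes for testing. Heart RNA of C57BL/6 mice was sequenced 1 week after the aorta had been surgically narrowed (transverse aortic constriction), which overloads the left ventricle with pressure. The cardiac-specific YY1 knockout group (YY1 KO) held 4 mice and the MerCreMer control group held 4 mice. MerCreMer is a drug-inducible Cre recombinase, fused to mutant oestrogen receptor domains, and the labels name it for the controls. They state neither its promoter, nor the inducing drug, the Yy1 allele or the age of the mice. All hearts were loaded and no unoperated heart was analysed, so a difference is between genotypes under load and says nothing of the response to load itself.

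Calcineurin is a phosphatase switched on by calcium and calmodulin. It removes phosphates from NFATc proteins, which then enter the nucleus, and this route is a classic driver of pathological cardiac hypertrophy. RCAN1 binds and inhibits calcineurin, and its short isoform is itself transcribed from a calcineurin- and NFAT-responsive promoter, so that Rcan1 RNA is widely read as a reporter of the pathway. CaMKII is the other major calcium and calmodulin effector of the heart. Its delta and gamma isoforms predominate in cardiomyocytes, where it phosphorylates calcium-handling proteins and class IIa histone deacetylases. All of these proteins are controlled mainly by calcium, phosphorylation and localisation, which RNA counts do not measure.

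Promoters of 7 of the 10 genes were taken by symbol from the RefSeq table (GRCm38.p6). They gave 10 windows, each from 250 bases before to 50 bases after a transcription start. Windows of Ppp3ca, Camk2g and Nfatc1 were not used, with or without a match by symbol, so the counts below leave these genes out. YY1's motif was searched as GCCATNTT and the NFAT core as TGGAAA, each on both strands. The YY1 letters were found in 2 of the 10 windows and in 6.05% of all 32851 promoter windows, and the NFAT letters in 3 of the 10 and in 21.4% of all. Both Rcan1 starts and the Ppp3cb start are shown, because these windows hold the YY1 letters or, at the internal Rcan1 start, a pair of NFAT matches. In the lines that follow, capitals mark the YY1 letters in the upstream Rcan1 start (chr16:92466120-92466419, minus strand) and in Ppp3cb (chr14:20546524-20546823, minus strand). In the internal Rcan1 start (chr16:92400029-92400328, minus strand) they mark the NFAT letters.
Rcan1 upstream start: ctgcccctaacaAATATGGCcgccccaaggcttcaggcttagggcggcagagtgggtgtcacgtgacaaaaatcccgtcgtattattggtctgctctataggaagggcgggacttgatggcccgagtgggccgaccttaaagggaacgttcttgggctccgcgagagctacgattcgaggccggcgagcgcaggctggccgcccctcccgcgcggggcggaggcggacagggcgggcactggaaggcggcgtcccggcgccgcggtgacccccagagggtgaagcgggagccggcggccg
Rcan1 internal start: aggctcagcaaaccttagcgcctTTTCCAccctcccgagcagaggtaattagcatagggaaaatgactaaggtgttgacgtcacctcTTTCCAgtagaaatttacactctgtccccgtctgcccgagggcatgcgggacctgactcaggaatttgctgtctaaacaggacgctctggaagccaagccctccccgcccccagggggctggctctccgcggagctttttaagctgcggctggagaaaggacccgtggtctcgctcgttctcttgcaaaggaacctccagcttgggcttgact
Ppp3cb start: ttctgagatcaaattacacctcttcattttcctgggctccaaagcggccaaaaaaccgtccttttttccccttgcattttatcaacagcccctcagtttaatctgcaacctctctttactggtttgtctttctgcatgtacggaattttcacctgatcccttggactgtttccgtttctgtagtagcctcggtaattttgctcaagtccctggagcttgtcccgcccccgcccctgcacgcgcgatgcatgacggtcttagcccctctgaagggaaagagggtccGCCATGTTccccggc
Such a match describes the letters of a window and is not evidence of binding. The windows of Camk2d and Nfatc3 held neither motif.

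The libraries held 14582605 to 16000455 reads in genes. Yy1, the deleted gene, checks the labels: it was at 18.0 to 23.8 CPM (read counts relative to TMM-scaled library size) in YY1 KO hearts, against 33.8 to 37.2 CPM in controls. The log2 fold change of Yy1 was −0.78 ± 0.10 (SE; Benjamini-Hochberg adjusted p = 0.000769 by the quasi-likelihood test of edgeR, and p = 0.0286 in a two-sided exact permutation test, the smallest that 4 against 4 libraries allow). Although all mice are labelled male, 4 libraries carried the female transcript Xist (138 to 219 CPM) and the other 4 carried Y-linked transcripts (162 to 196 CPM in sum), with 2 of each kind in each genotype. Within the 4 Xist-positive hearts edgeR called 0 of 13671 genes (1852 higher and 1599 lower at an unadjusted p under 0.05), and within the 4 Y-positive hearts it called 3336 of 13626.

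Whole heart holds many cell types, and in such bulk RNA fewer cells of a type and less RNA per cell cannot be told apart. Defining cardiomyocyte markers were abundant in every library, but their summed level was 51990 to 74100 CPM in YY1 KO hearts and 75190 to 100600 CPM in controls (2 of 8 called lower, 0 higher). Endothelial markers summed to 759.5 to 936 CPM in YY1 KO hearts and 1159 to 1579 CPM in controls (5 of 6 lower). Fibroblast markers (1259 to 2766 CPM in YY1 KO hearts, 872 to 2244 CPM in controls; 1 of 6 higher), smooth muscle and pericyte markers (545 to 803 CPM in YY1 KO hearts, 743 to 944 CPM in controls; 2 of 7 lower) and macrophage markers (153 to 197 CPM in YY1 KO hearts, 133 to 213 CPM in controls; 0 of 6 called) overlapped between genotypes. Atrial markers summed to 3025 to 4050 CPM in YY1 KO hearts and 284.5 to 4333 CPM in controls. Of the 3 tested, 1 was called higher and 1 lower, and Nppa was not called. Most of that sum was Nppa alone (2989 to 4034 CPM in YY1 KO hearts, 159.1 to 4283 CPM in controls). Nppa also responds to load, so the sum does not measure atrial tissue. Erythroid markers lay at 15.6 to 89.6 CPM in YY1 KO hearts and 15.6 to 32.7 CPM in controls, with Hba-a1 and Hbb-bs at 0. Neutrophil markers reached 3.80 to 17.4 CPM in YY1 KO hearts, against 1.92 to 3.79 CPM in controls, and skeletal muscle markers reached 3.30 to 14.2 CPM in YY1 KO hearts, against 0.563 to 1.64 CPM in controls, with Myh4 and Myod1 at 0. Markers of T cells, B cells, adipocytes, mesothelium and Schwann cells summed to at most 18.3 CPM in any library. The part of cell composition in the results that follow was not tested.

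Camk2d and Nfatc3 fell in YY1 KO hearts, 0 of the 10 genes rose, and 8 were not called at an adjusted p under 0.05 in edgeR. The 2 calls among 10 genes compare with 38.9% of all genes tested. By direction, 21.6% of all genes rose and 17.3% fell. DESeq2 and limma-voom also called 0 of the 10 higher, and at an unadjusted p under 0.05 edgeR had 1 higher and 3 lower, beside 48.7% of all genes in either direction. The median log2 fold change of the 10 genes was −0.035, beside 0.013 over all genes tested. The libraries of the genotypes did not overlap for 4 of the 10 genes (Ppp3ca, Ppp3r1, Nfatc3 and Camk2d), near the 38.3% of all genes tested.

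**Figure D1:**
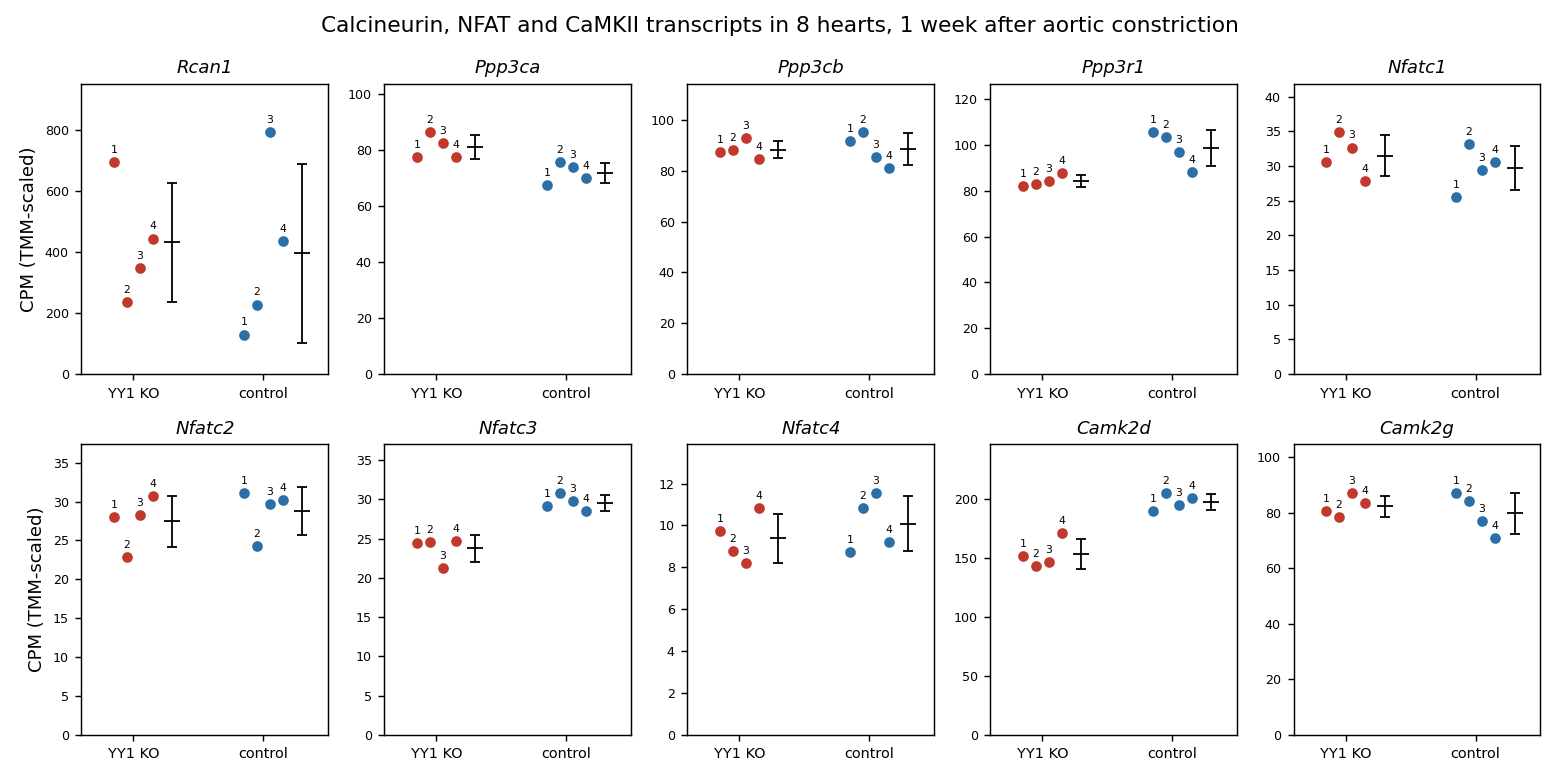
Level of each of the 10 genes in every library, in CPM on a linear axis from 0, with YY1 KO hearts in red, control hearts in blue and mouse numbers beside the points; black bars give the mean ± SD of 4 hearts. Camk2d, Nfatc3 and Ppp3r1 lie lower in all YY1 KO hearts, Ppp3ca lies higher, and Rcan1 spreads from 129.9 to 794 CPM within the controls.

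Per kilobase of the longest coding transcript, Rcan1 had the highest mean of the 10 in both genotypes, at 186 ± 84.5 CPM per kb in YY1 KO hearts and 171 ± 126 in controls (SD, n = 4 each). In YY1 KO hearts the order then ran Ppp3r1 (29.5), Camk2d (27.7), Ppp3cb (23.1), Camk2g (22.2), Ppp3ca (17.0), Nfatc1 (6.57), Nfatc2 (4.02), Nfatc3 (3.97) and Nfatc4 (2.49 CPM per kb). In controls Camk2d (35.8) came before Ppp3r1 (34.5) and Nfatc3 (4.94) before Nfatc2 (4.22 CPM per kb). The ranges over libraries overlapped between Ppp3r1 and Camk2d and between Ppp3cb and Camk2g in both genotypes, and between Nfatc2 and Nfatc3 in YY1 KO hearts. The order depends on the length used. Per kilobase of all annotated exons Camk2g came before Ppp3cb and Camk2d in both genotypes, Ppp3ca also came before Camk2d in YY1 KO hearts, and Nfatc2 came before Nfatc3 in controls too. The 4 NFATc transcripts ranked lowest with either length.

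Rcan1 (chr16:92391953-92470867 in mm10, minus strand) was the most variable of the 10 genes, and its difference between genotypes was small against that spread. Its level was 697, 236, 349 and 445 CPM in YY1 KO hearts 1 to 4, against 129.9, 228, 794 and 435 CPM in control hearts 1 to 4. The highest and the lowest heart were both controls, so that the range of the controls enclosed that of the YY1 KO hearts. The log2 fold change was 0.12 ± 0.52, with a 95% confidence interval of −1.06 to 1.30 (edgeR adjusted p = 0.870), so changes of 2-fold in either direction lie within the interval. The fold change was 0.70 without control 3 (adjusted p = 0.262) and −0.21 without YY1 KO 1 (adjusted p = 0.790). It was 1.01 within the Xist-positive hearts and −0.82 within the Y-positive hearts, and the test of that difference in edgeR gave an unadjusted p of 0.110 (adjusted p = 0.812). The within-group SD of Rcan1 was 0.924 on the log2 CPM scale, above 97.6% of all genes tested, whereas each of the other 9 genes had at most 0.182, below the median of 0.216. Gene counts do not separate the long isoform from the upstream start from the short isoform from the internal start.

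Rcan1's order of hearts was shared in part by transcripts that respond to load. In control 1, where Rcan1 was lowest, the natriuretic peptide transcripts Nppa and Nppb were at 159.1 and 219.6 CPM and the skeletal actin transcript Acta1 at 137.8 CPM. Each was the lowest of the 8 libraries. In control 3, where Rcan1 was highest, Acta1 was also highest at 5309 CPM, but Nppa (2839 CPM) and Nppb (1122 CPM) were not. Myh7, the slow myosin heavy chain transcript, was highest in YY1 KO 2 at 9929 CPM, a heart with little Rcan1. The labels give no measure of the pressure load, and its part in the spread of Rcan1 was not tested.

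**Figure D2:**
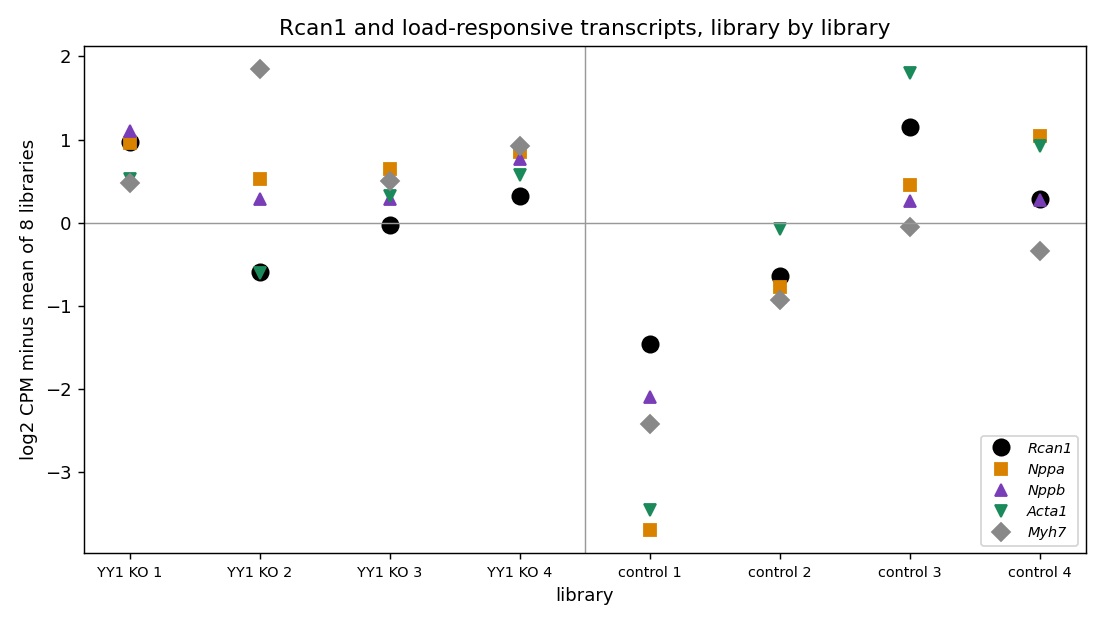
Log2 CPM of Rcan1 and of the load-responsive transcripts Nppa, Nppb, Acta1 and Myh7 in each library, minus the mean of that gene over the 8 libraries, with YY1 KO hearts on the left. All 5 are lowest in control 1, and Myh7 departs from Rcan1 most in YY1 KO 2.

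The genes whose centred log2 CPM lay closest to Rcan1 over the 8 libraries were Parpbp, with a root-mean-square difference of 0.189, Arhgap11a (0.209) and Fam198b (0.222). Parpbp encodes a PARP1-binding protein. Arhgap11a stood at 10.4 to 21.3 CPM in YY1 KO hearts, against 3.87 to 24.3 CPM in controls. It was thus lowest in control 1 and highest in control 3, like Rcan1. Fam198b was also lowest in control 1 (52.3 CPM), but highest in YY1 KO 1 (216.9 CPM, against 187 CPM in control 3). Parpbp was low throughout, at 0.747 to 2.08 CPM in YY1 KO hearts and 0.352 to 2.84 CPM in controls. These neighbours were looked up after the values of Rcan1 were seen. They were picked for their distance to Rcan1 over the same 8 libraries, so a shared order of hearts follows from the choice.

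Among the calcineurin subunits no member was called, though the regulatory subunit came close. Ppp3r1, which encodes the calcium-binding B subunit, was at 82.0, 82.8, 84.4 and 87.6 CPM in YY1 KO hearts, against 106, 103, 96.8 and 88.2 CPM in controls. All YY1 KO hearts lay below all controls, with a narrow gap to control 4. The log2 fold change was −0.23 ± 0.080 (edgeR adjusted p = 0.0502), and the adjusted p was 0.0416 with RLE scaling and 0.0224 in DESeq2. In edgeR it was 0.135 with library size alone as the scaling and 0.133 with a term for replicate number. Of the 8 fits that left out 1 library, 1 called Ppp3r1. Ppp3r1 (chr11:17159263-17200375 in mm10, plus strand) shares 462 exon bases with Wdr92 on the same strand in GENCODE M21, and reads there cannot be assigned to either gene.

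Ppp3ca, the alpha catalytic subunit, was at 77.7, 86.5, 82.6 and 77.6 CPM in YY1 KO hearts, against 67.7, 75.8, 73.9 and 69.9 CPM in controls. Its libraries did not overlap and lay higher in YY1 KO hearts, but the change was small and not called (log2 fold change 0.18 ± 0.075, 95% confidence interval 0.0068 to 0.34, edgeR adjusted p = 0.0915). With library size alone as the scaling the adjusted p was 0.0308. Ppp3cb, the beta catalytic subunit, was at 87.5, 88.1, 93.0 and 84.7 CPM in YY1 KO hearts, against 91.8, 95.3, 85.4 and 81.2 CPM in controls. Its log2 fold change was −0.0011, and the 95% confidence interval of −0.18 to 0.18 leaves out changes of 1.5-fold.

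The catalytic subunit outside the 10 genes did change. Ppp3cc, the gamma isoform, was at 56.9, 60.0, 63.3 and 56.4 CPM in YY1 KO hearts, against 35.9, 36.7, 42.8 and 39.1 CPM in controls. Every YY1 KO heart was above every control, and Ppp3cc rose 1.53-fold (log2 fold change 0.61 ± 0.083, edgeR adjusted p = 0.000886). Per kilobase of the longest coding transcript, Ppp3cc made up 42.8 ± 0.507% of the catalytic subunit transcripts in YY1 KO hearts and 34.0 ± 2.48% in controls. The share of Ppp3cb was 32.9 ± 0.607% in YY1 KO hearts and 39.9 ± 2.58% in controls (SD, n = 4 each). Neither share overlapped between genotypes, also per kilobase of all exons, where Ppp3cc held 52.2% in YY1 KO hearts and 42.9% in controls. The level of Ppp3cb itself was 23.1 CPM per kb of the longest coding transcript in both genotypes. Its share was lower because the summed level was higher, at 70.1 CPM per kb in YY1 KO hearts and 57.8 in controls.

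Among the regulators of calcineurin, Rcan3 rose and its relatives were not called. Rcan3 was at 45.9, 51.3, 45.7 and 32.9 CPM in YY1 KO hearts, against 21.6, 22.4, 24.3 and 23.2 CPM in controls, and rose 1.92-fold (log2 fold change 0.94 ± 0.13, edgeR adjusted p = 0.00102). Rcan2, a relative of Rcan1, averaged 680 ± 82.9 CPM in YY1 KO hearts and 644 ± 34.4 CPM in controls and was not called (log2 fold change 0.077 ± 0.11). Per kilobase, Rcan3 accounted for only 2.20 ± 0.587% of RCAN transcripts in YY1 KO hearts and 1.29 ± 0.318% in controls. The summed RCAN level, 399.5 ± 66.9 CPM per kb in YY1 KO hearts and 369.7 ± 121 in controls, overlapped between genotypes.

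Of the 16 tested calcineurin partners outside the 10 genes, 5 rose and 2 fell (43.8%, beside 38.9% of all genes). Besides Ppp3cc and Rcan3, the calcineurin B homologous gene Chp1 (log2 fold change 0.34 ± 0.097) and Cib1 (0.62 ± 0.16), whose product anchors calcineurin at the sarcolemma, rose. Myoz1, a calsarcin gene of fast skeletal muscle, was low, at 1.80 ± 0.700 CPM in YY1 KO hearts and 0.801 ± 0.372 CPM in controls. It rose 2.22-fold, and its call was lost without any of the 8 libraries in turn (adjusted p 0.0502 to 0.131 in edgeR). The Chp1 call was lost without YY1 KO 3, control 2 or control 4 (adjusted p 0.0509 to 0.0658). It was also lost with a term for replicate number (adjusted p = 0.0511 in edgeR). The 2 that fell, Akap5 and Akap6, encode kinase-anchoring proteins that also bind calcineurin. Akap5 was at 2.97, 0.883, 1.49 and 2.93 CPM in YY1 KO hearts, against 7.11, 5.27, 9.67 and 4.87 CPM in controls (log2 fold change −1.69 ± 0.39). Akap6, the perinuclear scaffold mAKAP, averaged 142 ± 19.8 CPM in YY1 KO hearts and 207 ± 24.3 CPM in controls (−0.54 ± 0.13). The calmodulin gene Calm2 (0.18) and the cardiac calsarcin gene Myoz2 (−0.15) were not called. Calm3, another calmodulin gene, came as close as Ppp3r1 without a call (−0.22, edgeR adjusted p = 0.0502). It was at 220 to 232 CPM in YY1 KO hearts and 244 to 275 CPM in controls, without overlap.

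**Figure D3:**
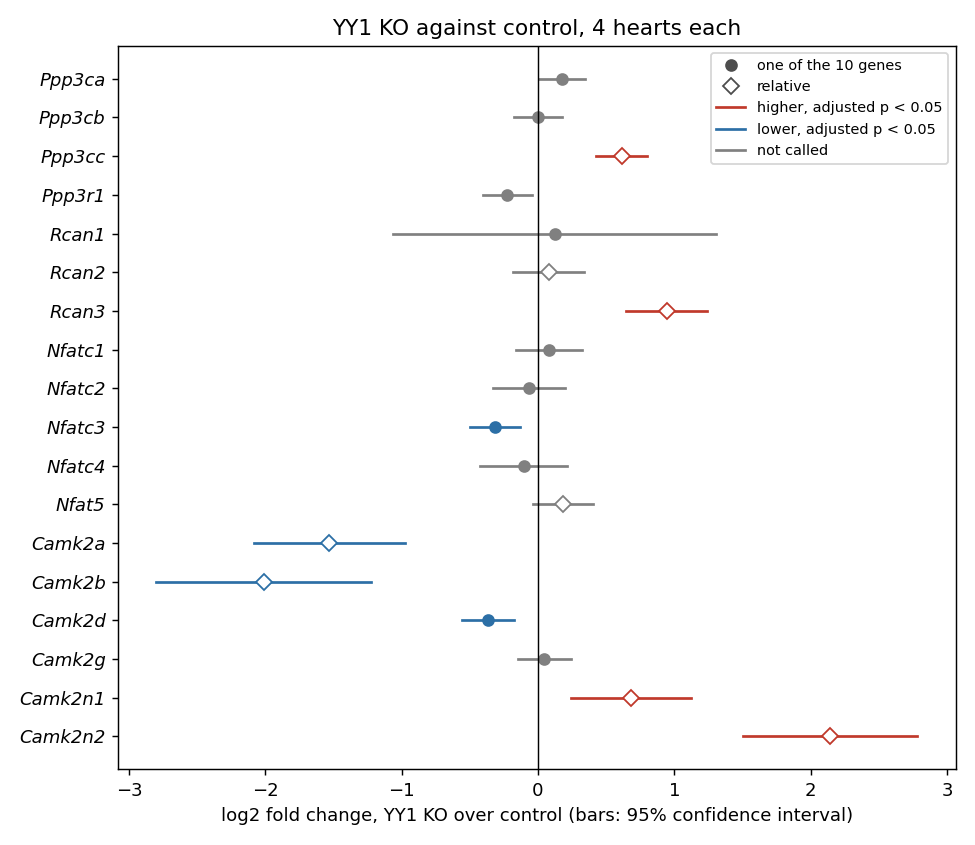
Log2 fold change of YY1 KO over control with its 95% confidence interval for the 10 genes (filled circles) and their relatives (open diamonds), coloured by call at an adjusted p under 0.05. The log2 fold changes of the 10 genes lie between −0.37 (Camk2d) and 0.18 (Ppp3ca), whereas Ppp3cc (0.61), Rcan3, Camk2a, Camk2b, Camk2n1 and Camk2n2 lie further out.

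Of the NFATc factors, only Nfatc3 was called. Nfatc3 was at 24.5, 24.6, 21.2 and 24.7 CPM in YY1 KO hearts, against 29.1, 30.8, 29.8 and 28.5 CPM in controls. All YY1 KO hearts lay below all controls, and the mean was 80.4% of the control mean. The log2 fold change was −0.31 ± 0.082 (95% confidence interval −0.50 to −0.13, edgeR adjusted p = 0.0152), with −0.23 within the Xist-positive hearts and −0.42 within the Y-positive hearts, neither called. The call was lost with library size alone as the scaling (adjusted p = 0.0556). Nfatc3 (chr8:106058840-106130537 in mm10, plus strand) shares 219 exon bases with Esrp2 on the opposite strand, and with sense-strand counts its log2 fold change was −0.32 (adjusted p = 0.0143). In bulk RNA this is 1 transcript of 4 that together averaged 17.0 ± 0.267 CPM per kb in YY1 KO hearts and 18.0 ± 0.681 in controls. Nfatc3's share of that sum was 23.3 ± 1.32% in YY1 KO hearts and 27.4 ± 0.936% in controls, without overlap.

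The other NFATc transcripts overlapped between genotypes. Nfatc1, the NFAT factor needed for heart valve formation, was at 30.6, 34.9, 32.7 and 27.9 CPM in YY1 KO hearts, against 25.6, 33.2, 29.4 and 30.6 CPM in controls (log2 fold change 0.084, 95% confidence interval −0.16 to 0.33). Nfatc2 was at 28.0, 22.9, 28.3 and 30.7 CPM in YY1 KO hearts, against 31.1, 24.3, 29.6 and 30.2 CPM in controls (−0.069, −0.33 to 0.19). In both genotypes mouse 2 had the least Nfatc2. Nfatc4, which joins GATA4 in the hypertrophic programme, was the least abundant, at 9.73, 8.76, 8.19 and 10.8 CPM in YY1 KO hearts, against 8.73, 10.8, 11.6 and 9.23 CPM in controls (−0.10, −0.42 to 0.22). The Xist-positive hearts had more Nfatc4 than the Y-positive hearts among the YY1 KO and less among the controls, and that interaction had an unadjusted p of 0.0355 but an adjusted p of 0.812 in edgeR.

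Of 19 kinases and partners of NFAT proteins, 1 rose and 3 fell, or 21.1%, beside 38.9% of all genes tested. Dyrk2, a kinase that phosphorylates NFAT, fell to 9.85 ± 1.53 CPM in YY1 KO hearts, against 21.8 ± 2.20 CPM in controls (log2 fold change −1.14 ± 0.13, edgeR adjusted p = 0.000497). The JNK gene Mapk10 (−1.50 ± 0.30) and Homer2, a scaffold that competes with calcineurin for NFAT (−0.44 ± 0.12), fell as well, and the Homer2 call was lost without YY1 KO 1 (adjusted p = 0.0541). Kpnb1, the importin beta gene for nuclear import, rose by 0.50 ± 0.093. The main NFAT export kinases were not called, with log2 fold changes of 0.17 for Gsk3b, 0.22 for Dyrk1a and −0.092 for Csnk1a1. Nfat5, the calcium-independent family member, was at 0.18 ± 0.097 and not called.

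**Figure D4:**
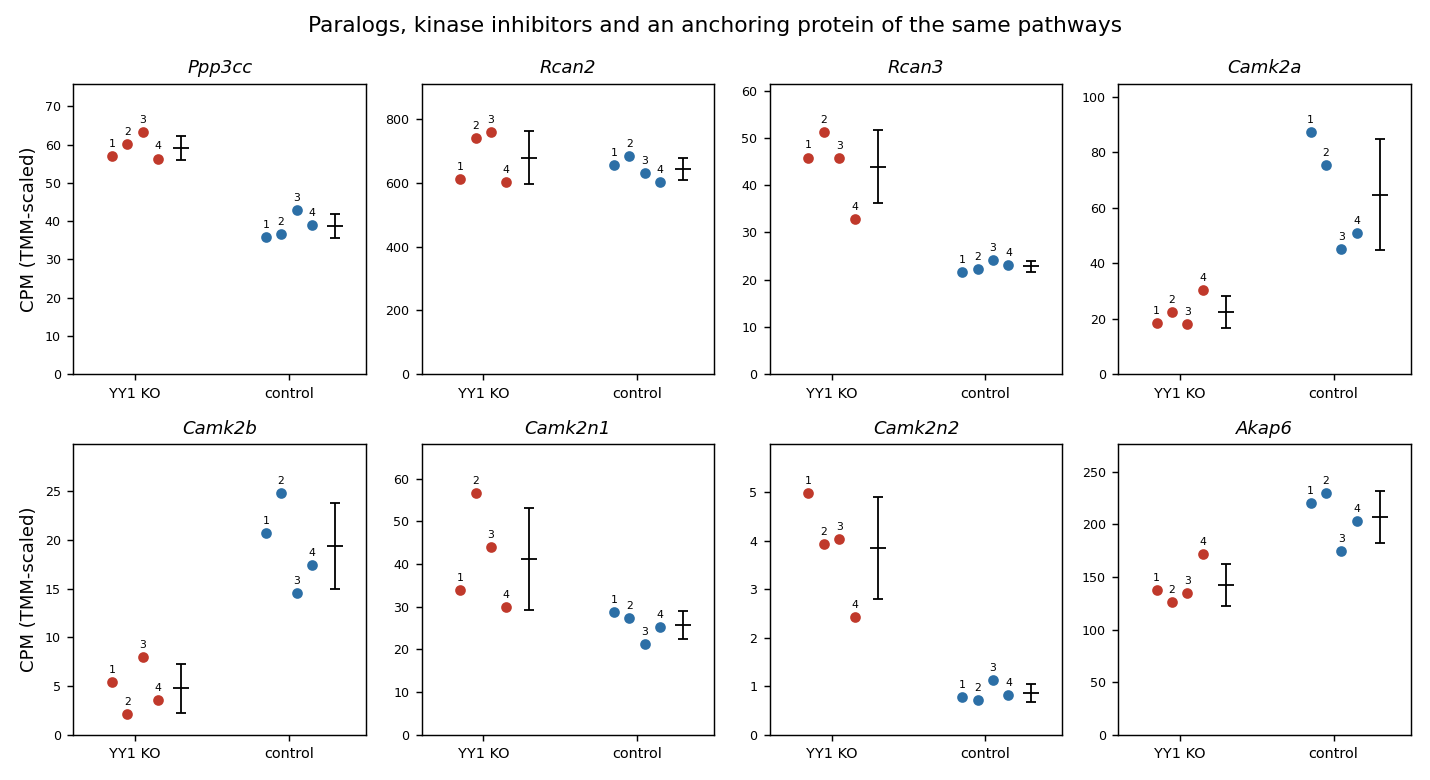
Level of 8 further genes of the same pathways in every library, in CPM on linear axes from 0, with YY1 KO hearts in red and control hearts in blue; black bars give the mean ± SD of 4 hearts. Every gene shown except Rcan2 separates the genotypes, with Ppp3cc, Rcan3, Camk2n1 and Camk2n2 higher and Camk2a, Camk2b and Akap6 lower in YY1 KO hearts.

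Camk2d (chr3:126596302-126846326 in mm10, plus strand), the main cardiac CaMKII isoform, had the largest change of the 10 genes by log2 fold change. Its level was 151, 143, 147 and 171 CPM in YY1 KO hearts, against 189.5, 205, 194 and 201 CPM in controls. The groups did not overlap, and the YY1 KO mean was 77.5% of the control mean. The log2 fold change was −0.37 ± 0.084 (95% confidence interval −0.56 to −0.18, edgeR adjusted p = 0.00873). It was −0.34 to −0.43 when any library was left out, and called each time. Within the Xist-positive hearts it was −0.28 (not called) and within the Y-positive hearts −0.48 (called). Camk2g, the gamma isoform, stood at 80.5, 78.4, 87.1 and 83.4 CPM in YY1 KO hearts, against 87.0, 84.2, 76.9 and 70.8 CPM in controls. It overlapped between genotypes, with a log2 fold change of 0.047 and a 95% confidence interval of −0.15 to 0.24.

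The CaMKII isoforms outside the 10 genes fell much further. Camk2a was at 18.5, 22.4, 18.1 and 30.4 CPM in YY1 KO hearts, against 87.3, 75.3, 45.1 and 50.8 CPM in controls (log2 fold change −1.53 ± 0.25, edgeR adjusted p = 0.00174). Camk2b was at 5.46, 2.17, 7.99 and 3.55 CPM in YY1 KO hearts, against 20.7, 24.8, 14.6 and 17.5 CPM in controls (−2.01 ± 0.35, adjusted p = 0.00243). Alpha and beta are best known as the neuronal isoforms. Per kilobase of the longest coding transcript, Camk2a made up 8.04 ± 1.66% of CaMKII transcripts in YY1 KO hearts and 17.1 ± 3.91% in controls, and Camk2b 2.14 ± 1.13% in YY1 KO hearts and 6.37 ± 0.957% in controls. The share of Camk2g was 40.0 ± 2.09% in YY1 KO hearts and 28.7 ± 1.31% in controls, without overlap, while that of Camk2d (49.8 ± 1.53% in YY1 KO hearts, 47.9 ± 4.48% in controls) overlapped. The level of Camk2g itself overlapped (22.2 CPM per kb in YY1 KO hearts, 21.5 in controls), so its share rose as the other isoforms fell. All CaMKII transcripts summed to 55.6 ± 3.54 CPM per kb in YY1 KO hearts and 75.1 ± 6.67 in controls, and the sums did not overlap. With lengths of all exons Camk2g held 55.6% in YY1 KO hearts and 39.1% in controls, so the ranking of Camk2d and Camk2g depends on the length used but the separation of the Camk2g share does not.

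The genes of the natural CaMKII inhibitor proteins moved the other way. Camk2n2 was at 4.99, 3.94, 4.03 and 2.43 CPM in YY1 KO hearts, against 0.77, 0.71, 1.14 and 0.82 CPM in controls, and rose 4.42-fold (log2 fold change 2.14 ± 0.28, edgeR adjusted p = 0.000814). Camk2n1, the more abundant of the pair, was at 34.0, 56.7, 44.1 and 30.0 CPM in YY1 KO hearts, against 28.7, 27.4, 21.3 and 25.4 CPM in controls (0.68 ± 0.20, adjusted p = 0.0228). Its groups were separated by little more than 1 CPM, and the call was lost without YY1 KO 3, control 3 or control 4 (adjusted p 0.0558 to 0.0635). In all, 3 of 11 tested relatives and inhibitors of the CaM kinases rose and 4 fell (63.6%, beside 38.9% of all genes tested). Msra, the methionine sulfoxide reductase gene whose product reverses oxidation of CaMKII, rose (0.49 ± 0.12), while Pnck, a CaM kinase I relative, fell (−2.21 ± 0.34). Camk1 fell by 0.27 ± 0.079, a call that was lost with library size alone as the scaling (adjusted p = 0.115) and without 5 of the 8 libraries in turn (YY1 KO 1, 2 or 3, control 3 or control 4; adjusted p 0.0509 to 0.0809). With a term for replicate number the Camk1 call was lost as well (adjusted p = 0.0753 in edgeR). The upstream kinase genes Camkk1 (0.35) and Camkk2 (0.048) were not called.

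Among genes that bring calcium to these enzymes, 5 of 22 fell and 0 rose in edgeR, or 22.7%. Of all genes tested, 17.3% fell and 21.6% rose. The receptor genes Adra1a (−1.75 ± 0.43), Adra1b (−1.98 ± 0.38) and Agtr1a (−1.30 ± 0.25), for adrenaline and angiotensin, were lower. Itpr1 (−0.43 ± 0.11), which encodes a calcium release channel, was lower too, with an edgeR adjusted p of 0.0145, and of 0.0539 with library size alone as the scaling. The L-type calcium channel gene Cacna1c (−0.11 ± 0.16) and the store-operated channel gene Orai1 (−0.0077 ± 0.12) were not called. Trpc6, an NFAT-responsive channel gene, was below the filter, at 0.241 ± 0.135 CPM in YY1 KO hearts and 0.498 ± 0.463 CPM in controls.

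Downstream of CaMKII, the class IIa histone deacetylases hold back MEF2 factors. Of 13 genes of this branch 4 fell and 0 rose in edgeR, or 30.8%, beside 17.3% lower and 21.6% higher among all genes tested. Hdac4 fell to 10.5 ± 1.29 CPM in YY1 KO hearts, against 15.7 ± 1.77 CPM in controls (log2 fold change −0.59 ± 0.13, adjusted p = 0.00687). Camta2, a calmodulin-binding transcription activator, fell by 0.51 ± 0.077, the protein kinase D gene Prkd2 by 1.06 ± 0.20, and Nr4a1, an immediate early nuclear receptor gene, by 1.48 ± 0.28. The MEF2 genes themselves were not called (Mef2a −0.18, Mef2c −0.28, Mef2d −0.16), nor were Hdac5 (−0.20), Hdac7 (−0.35) or Hdac9 (−0.20).

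Of 10 genes for CaMKII substrates, 1 rose and 2 fell, or 30.0%. The potassium channel gene Kcnj2 fell (−1.68 ± 0.33) and Mybpc3, the cardiac myosin binding protein C gene, rose (0.50 ± 0.15). The Mybpc3 call was lost without YY1 KO 2, YY1 KO 3, control 1 or control 4 (adjusted p 0.0547 to 0.0746 in edgeR). It was also lost with a term for replicate number (adjusted p = 0.0718 in edgeR). Ryr2 (−0.30 ± 0.23) and Pln (−0.056 ± 0.26), the sarcoplasmic reticulum targets, were not called. Of 6 tested genes that respond to calcineurin or NFAT, 2 rose and 1 fell, or 50%, beside 38.9% of all genes tested. Myh7 (1.75 ± 0.50) and the muscle adenylosuccinate synthetase gene Adssl1 (1.16 ± 0.23) were those that rose. Nppa, Nppb and Acta1 did not pass. The Myh7 call was lost without YY1 KO 2 or control 2 (adjusted p 0.0558 and 0.0615). Over all pathway lists, with each gene counted once, 12 of 95 genes rose and 20 fell, or 33.7%, beside 38.9% of all genes tested.

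**Figure D5:**
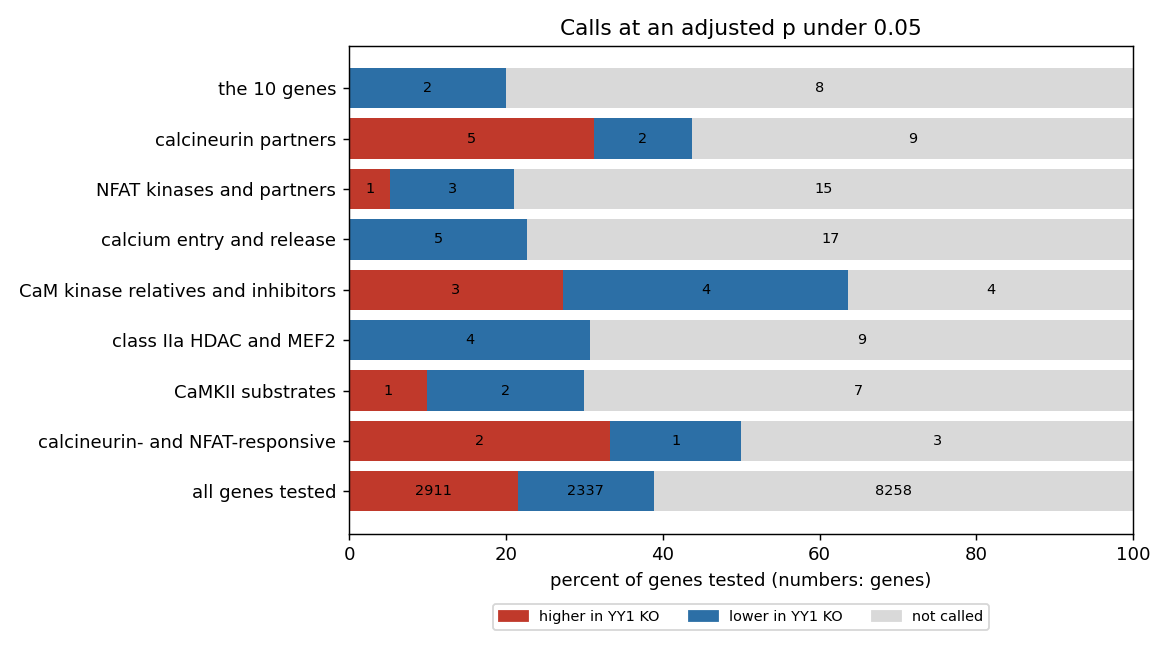
Share of tested genes called higher (red), lower (blue) or not called (grey) in YY1 KO hearts, for the 10 genes, 7 lists of related genes and all genes tested; numbers in the bars are genes. The 10 genes have 2 calls, both lower, and the CaM kinase relatives and inhibitors have 7 calls among 11 genes.

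For the called members, the genes with the most similar profiles were found by the same distance as for Rcan1. Closest to Nfatc3 were the mitochondrial import receptor gene Tomm20 (root-mean-square difference 0.036 on the log2 scale over 8 libraries), the RNA-binding protein gene Mex3d (0.039) and Kri1 (0.041). Closest to Camk2d were the adaptor complex gene Ap3d1 (0.042), the nucleotide-sugar transporter family gene Slc35a4 (0.049) and the chromatin remodelling gene Bptf (0.050). Their fold changes are not independent of this choice, since the distance includes the difference between the genotypes.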

How the data were processed

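Each mouse has 1 deposited table of raw counts, listed by gene symbol. Per the submitters' processing notes, the tools were Trimmomatic and STAR and the build mm10. The sources used here give no versions, settings or gene annotation. Counts irrespective of strand were used, and rows for reads in no gene (33.0 to 38.9% of reads) were left out. Genes passing edgeR's filterByExpr (minimum count 10) were tested with edgeR 4.0.16 (TMM, robust quasi-likelihood, genotype only in the model). P-values were adjusted by Benjamini-Hochberg over the whole table and called under 0.05. Fold changes on the log2 scale are YY1 KO over control. Lengths and positions come from GENCODE M21 (GRCm38, the build of mm10). Every replicate pair differed by more than counting noise (chi-square 14.5 to 96.1 times its degrees of freedom). P-values of edgeR set the difference between genotypes against the spread between mice.

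The members, the 7 pathway lists and the 14 marker lists were chosen with earlier results of these data known. The text names all members, called genes of each list with others of small p, and the 3 genes nearest to each called member. Genes not called, such as calmodulin or MEF2 genes, and the neighbours of Rcan1 were added after their values were seen. A few genes counted in the lists are not reported here by name. On simulated counts of 13390 genes, of which 200 were given a change, 63.0% of 2-fold and 20.0% of 1.5-fold changes were recovered. Far fewer genes were changed there than were called in these data (38.9%), and the adjustment depends on that share. These rates are therefore not the sensitivity of the calls above. Alternatives were other scalings and filters, DESeq2 1.42.0, limma-voom 3.58.1, sense-strand counts, a replicate block, a term for Xist, and each library left out. Separate fits of the Xist-positive and the Y-positive hearts were chosen after seeing the data. Scripts ran in R 4.3.3 and Python 3.11.15, with figures from matplotlib 3.10.9.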

Additional observations from a re-analysis of the deposited data

Results flagged for a closer look

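Nfatc3 in YY1 KO 3, at 21.24 CPM, stood apart from the 3 other YY1 KO hearts (24.5 to 24.7 CPM) by more than Dixon's 95% critical value for 4 values. Of 22 groups examined this was the only such library, and chance gives about 1 in 20. Without that heart the log2 fold change of Nfatc3 was −0.26 (edgeR adjusted p = 0.0480).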

How the results depend on the processing

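Of 200 values of the 10 genes under the alternatives, 174 kept direction and call. Within the Xist-positive hearts 0 genes passed in edgeR (0 higher, 0 lower; 1852 and 1599 at an unadjusted p under 0.05), hence 0 of the 10 genes and 0 pathway genes, and Yy1 was at −0.76 (adjusted p = 0.116). Within the Y-positive hearts 3336 genes passed (1730 higher), with 1 of the 10 genes (lower) and 23 pathway genes (6 higher, 17 lower). These fits hold 2 against 2 libraries. With library size alone, 1 of the 10 genes was higher (Ppp3ca) and 1 lower (Camk2d). Leaving out 1 library gave 3860 to 5233 called genes, 2 to 3 of the 10 and 28 to 36 pathway genes.

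The replicate numbers did not pair the hearts (correlations of −0.464 to 0.337, with 1 of 4 YY1 KO libraries closest to its own number). With the replicate block, 1 of the 10 genes was called (lower), and Nfatc3 had an adjusted p of 0.0519 in edgeR.

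Signs turned for values near 0 or widely spread. Rcan1 ran from −0.21 to 0.70 when 1 library was left out and was −0.82 within the Y-positive hearts. Ppp3cb was 0.061 with library size alone, 0.0094 with sense-strand counts, 0.00074 with the replicate block, 0.00033 in limma-voom and −0.049 to 0.026 when 1 library was left out. Nfatc2 ran from −0.15 to 0.0078 and Camk2g from −0.016 to 0.081 in the same way. Nfatc4 was 0.19 within the Xist-positive hearts. The cause was not tested. Called pathway genes kept their direction in all 640 values and their call in 561. Among the genes named, Myoz1 rested on 22 to 48 reads a library in YY1 KO hearts and 5 to 18 in controls. Other called genes also had few reads in their lower group. Camk2n2 had 10 to 18 reads a library in controls. In YY1 KO hearts Akap5 had 13 to 50 and Pnck 23 to 53.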
